A study of Mus musculus with 3 samples.

Results

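The NLRP genes of the oocyte outside the best known maternal group were followed through the H3K36me3 map of mouse oocytes. They are 7 germline genes, Nlrp14, Nlrp9a, Nlrp9b, Nlrp9c, Nlrp4a, Nlrp4b and Nlrp4e, and the immune gene Nlrp3 as a contrast. A gene was represented by every valid 2 kb window that overlapped its body by at least 1 base (GENCODE M21 on GRCm38). The rule gave 177 windows, 163 in the germline genes and 14 in Nlrp3, of 1186323 valid windows in all. The 8 genes stand among 21063 protein-coding genes with a valid window.

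The libraries were made by ultra-low-input native ChIP-seq, which pulls down chromatin without cross-linking, from 3 pools of about 280 germinal vesicle (GV) oocytes. All pools came from wildtype C57BL6/Babr mice 25 days old, so that a single group was measured and no condition was compared. Per the methods, replicate 2 was made with less antibody than replicates 1 and 3. The labels do not say how many mice gave the oocytes, and the spread between replicates may be partly technical. Values are those that the authors named RPKM (reads scaled to depth and window length), and a window with a mean value above 1 was enriched in their terms. The valid windows held between 2692510 and 7888140 reads per library, so that a single read gave a value of 0.136, 0.396 and 0.338 in replicates 1, 2 and 3. All 9 oocyte marker genes examined lay above 1 (median 2.28), against 1 of 7 granulosa cell markers (median 0.420) and 2 of 7 leukocyte markers (median 0.364). The median of the leukocyte markers was between 0.290 and 0.404 in the 3 replicates, and that of the granulosa markers between 0.226 and 0.462. No marker was at 0, and the part of other cells in the levels below was not tested.

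Most NLRP proteins combine an amino-terminal pyrin domain, a nucleotide-binding domain and leucine-rich repeats. Some of them, with NLRP3 as the best studied, assemble inflammasomes in immune cells, where they activate caspase-1. Others are transcribed mainly in germ cells, and in rodents the Nlrp4 and Nlrp9 groups have multiplied into several neighbouring copies. H3K36me3 is laid down over gene bodies behind elongating RNA polymerase II, H3K4me3 marks promoters and forms broad domains in oocytes, and H3K27me3 is the mark of Polycomb repression.

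Reads from stretches that are identical between copies cannot be assigned to one of them. The upstream parts of RefSeq promoters (GRCm38.p6) show how far the copies still resemble each other. Of the 8 genes, 7 matched the table and Nlrp14 did not. Up to 250 bases before the start are given 5′ to 3′ on the strand of the gene, without bases of annotated exons. Nlrp9a and Nlrp9c are shown as the closest pair, Nlrp4a (its downstream start) and Nlrp4b as the next, Nlrp9b as the copy that differs from its namesakes, and Nlrp3 as the immune gene. Capitals mark the E-box CANNTG, the homeobox-type motif TAATTG and the letters of a TATA box, TATAAA, each on either strand, and no matches overlap in these stretches. In order, the stretches are chr7:26534773-26535022 (plus strand), chr7:26403701-26403950 (minus strand), chr7:26435364-26435613 (plus), chr7:10687543-10687788 (plus), chr7:20007773-20008022 (plus) and chr11:59541319-59541567 (plus).
Nlrp9a: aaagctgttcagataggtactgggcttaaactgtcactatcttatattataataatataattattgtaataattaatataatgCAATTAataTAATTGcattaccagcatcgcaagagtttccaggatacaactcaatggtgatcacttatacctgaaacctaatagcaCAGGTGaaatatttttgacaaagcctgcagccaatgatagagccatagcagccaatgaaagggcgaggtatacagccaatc
Nlrp9c: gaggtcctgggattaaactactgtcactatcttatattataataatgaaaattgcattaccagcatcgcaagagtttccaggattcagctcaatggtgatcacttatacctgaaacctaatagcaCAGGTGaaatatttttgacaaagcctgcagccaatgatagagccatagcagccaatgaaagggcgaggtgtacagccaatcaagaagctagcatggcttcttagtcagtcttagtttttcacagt
Nlrp4a: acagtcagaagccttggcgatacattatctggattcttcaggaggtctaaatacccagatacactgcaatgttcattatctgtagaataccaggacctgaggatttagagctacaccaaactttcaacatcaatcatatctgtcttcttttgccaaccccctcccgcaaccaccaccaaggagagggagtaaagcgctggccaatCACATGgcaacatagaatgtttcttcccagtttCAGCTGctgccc
Nlrp4b: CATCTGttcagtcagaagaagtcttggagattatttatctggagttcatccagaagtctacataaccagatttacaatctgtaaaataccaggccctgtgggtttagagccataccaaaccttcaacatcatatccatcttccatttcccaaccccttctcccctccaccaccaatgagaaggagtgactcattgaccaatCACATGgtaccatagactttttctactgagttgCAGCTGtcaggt
Nlrp9b: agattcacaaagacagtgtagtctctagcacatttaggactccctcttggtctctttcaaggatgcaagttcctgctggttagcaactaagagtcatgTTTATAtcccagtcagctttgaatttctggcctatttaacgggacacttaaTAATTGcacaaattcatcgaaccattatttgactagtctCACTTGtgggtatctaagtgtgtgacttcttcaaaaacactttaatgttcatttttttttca
Nlrp3: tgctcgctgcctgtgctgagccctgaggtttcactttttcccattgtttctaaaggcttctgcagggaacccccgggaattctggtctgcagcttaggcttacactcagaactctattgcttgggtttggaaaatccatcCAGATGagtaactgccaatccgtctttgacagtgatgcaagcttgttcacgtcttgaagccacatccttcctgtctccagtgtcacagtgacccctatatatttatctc

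Aligned with free ends, the Nlrp9a and Nlrp9c stretches shared 97% of 203 aligned bases, and Nlrp4a and Nlrp4b shared 80.4% of 230 bases. Nlrp9b shared 72.7% of 165 aligned bases with Nlrp9a, which is close to the 71.0% of 145 bases between Nlrp9a and Nlrp3. The Nlrp9b stretch lies before a start at 20008023, inside the annotated gene, and the sequence before its annotated start was not aligned. An E-box, the site bound by the oocyte factor FIGLA and many other proteins, was present before 8 of the 10 starts that the table holds for the members, which include the 6 shown. It was absent before the start of Nlrp4e and the downstream start of Nlrp3. An E-box also occurred in the same 250 bases of 66.2% of 32851 promoters. Nlrp4a, Nlrp4b and Nlrp3 enter with 2 starts each. The 2 Nlrp4b stretches share 222 bases, so that the 10 starts are not separate promoters. TAATTG was found in Nlrp9a (2 matches) and in Nlrp9b (1 match), against 7.17% of all promoters. A match to TATAAA was found in Nlrp9b alone among the members, against 12.4% of all promoters. CG dinucleotides were few, between 0 in Nlrp4b and Nlrp4e and 4 in the upstream starts of Nlrp4a and Nlrp3, where the median of all promoters was 6. The matches are a description of letters, and no binding was measured.

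The levels of the mark came first. A gene's level was the mean value over its valid windows, and 6 of the 7 germline genes and Nlrp3 had a level above 1. This was so for 52.5% of all protein-coding genes, whose median was 1.11. Nlrp14, whose loss in female mice stops embryos early in development, had the highest level over the annotated genes. Over RefSeq spans it was at 1.61, below Nlrp4a, Nlrp4b and Nlrp9c. Its level was 2.40, 2.31 and 2.99 in replicates 1 to 3, or 2.57 ± 0.37 (SD, n = 3), and lay at percentile 94.8 of all protein-coding genes. Nlrp4a followed with 2.19, 2.43 and 2.57, or 2.40 ± 0.19, and Nlrp4b with 1.80, 2.38 and 2.51, or 2.23 ± 0.38 (SD, n = 3 each). The ranges of these 3 genes overlapped.

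The Nlrp9 copies formed a lower group around 1.5. Nlrp9a was at 1.64, 1.35 and 1.78 in replicates 1 to 3, or 1.59 ± 0.22. Nlrp9b, which is known as a sensor of viral RNA in the gut, was at 1.17, 1.62 and 1.69, or 1.50 ± 0.28. Nlrp9c was at 1.32, 1.52 and 1.59, or 1.478 ± 0.139 (SD, n = 3 each). Nlrp3 lay among them at 1.52, 1.30 and 1.81, or 1.55 ± 0.26, percentile 61.9. Nlrp4e was the lowest and the only member below 1, at 0.668, 0.793 and 0.934, or 0.798 ± 0.133 (SD, n = 3), percentile 42.7. All its replicates were below all replicates of every other member.

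**Figure D1:**
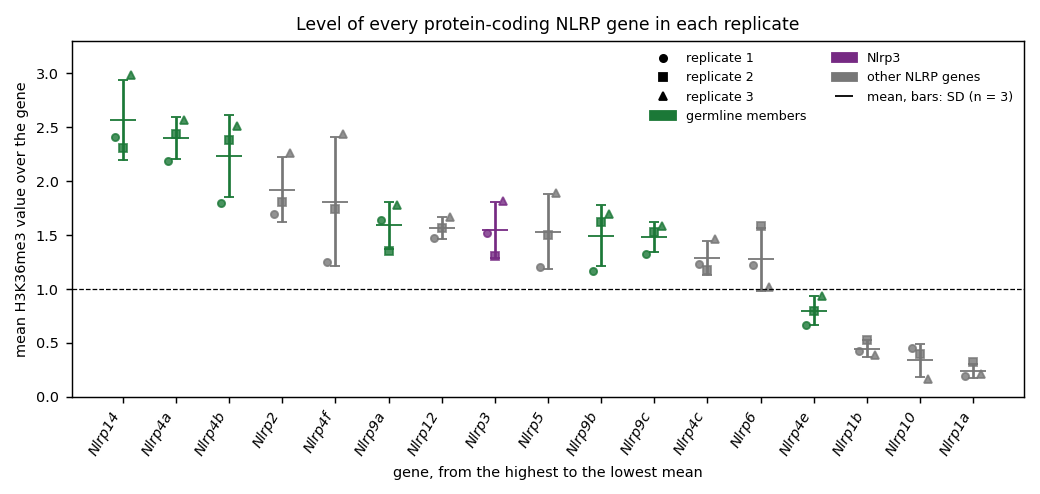
Level of each of the 17 protein-coding NLRP genes (mean H3K36me3 value over the gene, y axis) in replicates 1 to 3 (circle, square, triangle), with the mean and SD (n = 3), ordered by the mean. Nlrp14, Nlrp4a and Nlrp4b sit between 1.80 and 2.99, the Nlrp9 genes and Nlrp3 between 1.17 and 1.81, and Nlrp4e between 0.668 and 0.934, below the dashed threshold of 1.

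In the order Nlrp14, Nlrp4a, Nlrp4b, Nlrp9a, Nlrp3, Nlrp9b, Nlrp9c, Nlrp4e, 2 steps separated neighbours whose replicate ranges did not overlap. One was the step from Nlrp4b to Nlrp9a, with a log2 ratio of 0.48 ± 0.35 (SD over 3 replicates), and 0.13 in replicate 1. The other was that from Nlrp9c to Nlrp4e, with 0.90 ± 0.12. The remaining neighbours did not differ beyond their spread, with mean log2 ratios between 0.00 and 0.12. Counting error is a part of this spread. The genes held between 242 reads (Nlrp4e) and 656 reads (Nlrp4a) over the 3 libraries. For Nlrp3 in replicate 2, where 46 reads fell in the gene, the exact Poisson interval (95%, counting error only) ran from 0.954 to 1.74.

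Against Nlrp3 within the same library, the log2 ratio was 0.73 ± 0.08 for Nlrp14, 0.64 ± 0.22 for Nlrp4a and 0.53 ± 0.32 for Nlrp4b. Over the annotated genes, these were higher than Nlrp3 in 3 of 3 replicates. Over the longer RefSeq span the ratio of Nlrp14 was 0.063 (exact sign-flip permutation p = 1). Nlrp4e was lower in 3 of 3, with -0.95 ± 0.24. For these 4 genes the two-sided exact sign-flip permutation test gave p = 0.25, which is the smallest that 3 replicates allow. The ratios of the Nlrp9 genes were 0.04 ± 0.07 (Nlrp9a), -0.05 ± 0.35 (Nlrp9b) and -0.06 ± 0.25 (Nlrp9c), with signs that differed between replicates. For Nlrp9b and Nlrp9c the sign of the mean turned under other choices, for example to 0.33 for Nlrp9c when only windows with at least 90% unique sequence were used.

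The windows behind the levels differed more. Of the 163 valid windows of the germline genes, 115 (70.6%) were enriched, against 31.8% of all valid windows and 51.2% of windows in protein-coding genes. In Nlrp14 all 17 windows were enriched, with values from 1.17 to 4.53. In Nlrp4b it was 19 of 21, in Nlrp4a 18 of 22, in Nlrp9a 15 of 20, in Nlrp9b 21 of 32, in Nlrp9c 17 of 26 and in Nlrp4e 8 of 25. Nlrp3 had 9 of 14, or 64.3%. Above 1 in each of the 3 replicates were 84 of the 163 germline windows (51.5%) but 3 of the 14 Nlrp3 windows (21.4%), against 19.7% of all valid windows. A value above 1 took 8 reads in a window in replicate 1 and 3 reads in each of the others.

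**Figure D2:**
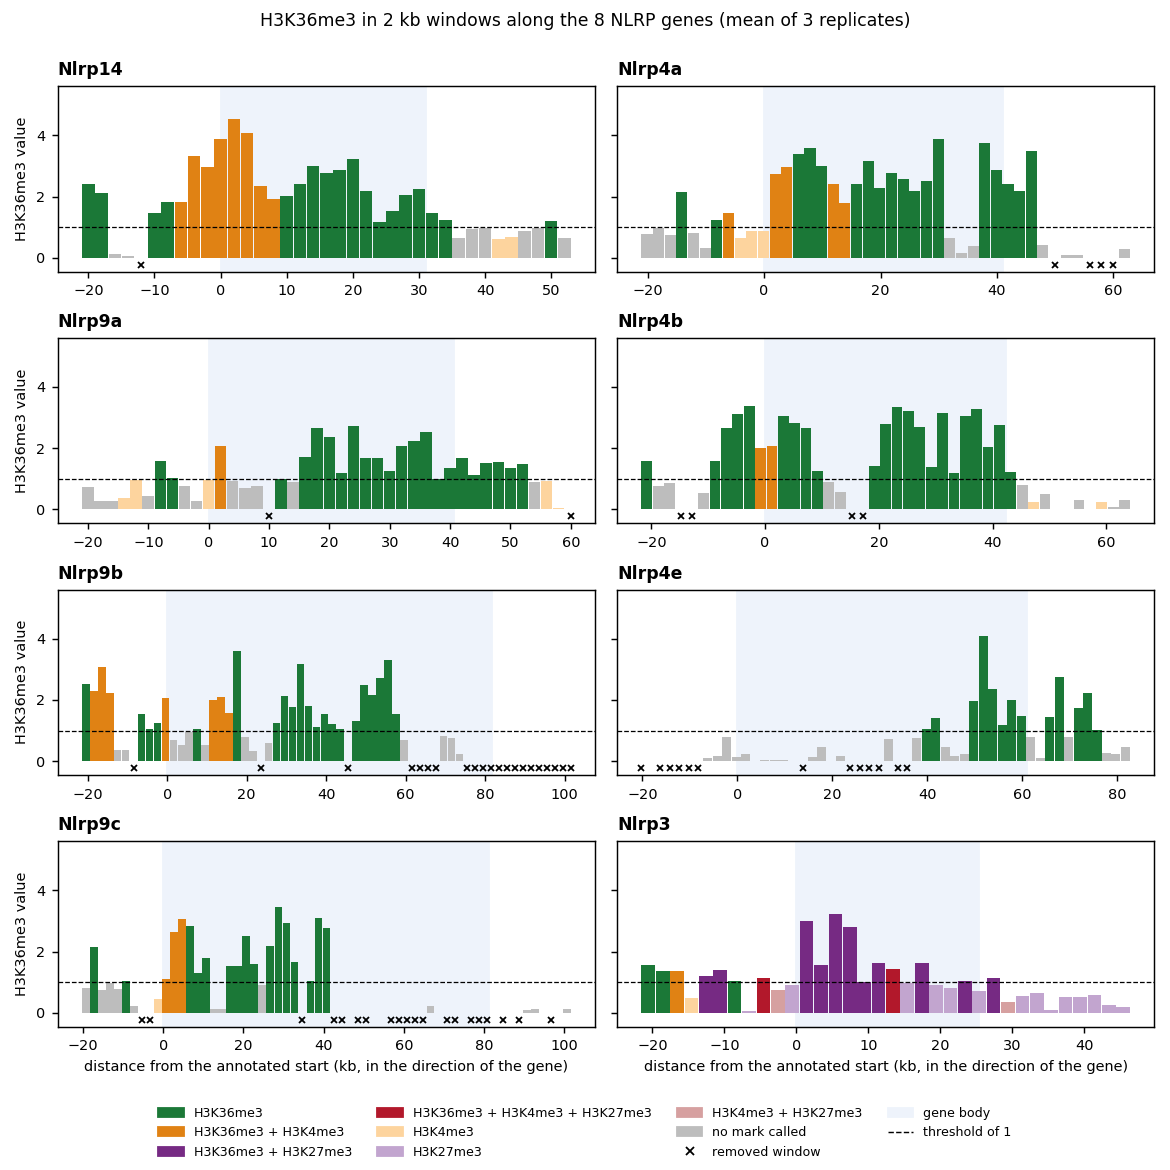
H3K36me3 value (mean of 3 replicates, y axis) of each valid 2 kb window along the 8 genes and 20 kb on either side, by distance from the annotated start in kb. Bar colours give the marks called, shading the gene body and crosses the removed windows. Nlrp14 is enriched in all of its 17 windows, Nlrp4e only in 8 of 25, all of them past its midpoint, and every valid window of Nlrp3 carries an H3K27me3 colour.

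Along Nlrp14 (chr7:107166990-107198102, plus strand), the enriched windows belonged to an unbroken domain of 46 kb. It began 11 kb before the annotated start and ended 3.90 kb past the end, with a mean of 2.45 ± 0.34 (SD, n = 3). Its upstream border was a removed window, and a removed window ended any domain here. Farther upstream lay windows at 0.0453 and 0.113, and then at 2.11 and 2.41. The part of the gene before its midpoint was at 3.02 ± 0.52 and the part after it at 2.16 ± 0.25. RefSeq starts this gene farther upstream, at 107113455, a span of 40 valid windows.

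Nlrp4a (chr7:26435113-26476142, plus strand) held a domain of 30 kb and another of 10 kb, with means of 2.77 ± 0.25 and 2.94 ± 0.41. Between them lay windows down to 0.158. Nlrp4b (chr7:10687789-10730168, plus strand) was covered by domains of 20 kb and 26 kb at 2.46 ± 0.74 and 2.42 ± 0.36, of which the first began 9.79 kb before the start. Nlrp9a (chr7:26535023-26575615, plus strand) had values from 0.694 to 1.01 in 6 of its first 7 valid windows and 2.06 in the other, the second. It then carried a domain of 38 kb at 1.74 ± 0.16, which ran 12.4 kb past the annotated end (SD, n = 3 for each domain).

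Nlrp9b and Nlrp9c showed a pattern that depends on which transcript is taken as the gene. In Nlrp9b (chr7:19991465-20073306, plus strand) the highest window, at 3.58 on average and at 2.72, 3.96 and 4.06 in replicates 1 to 3, held the start at 20008023. The RefSeq promoter shown above lies before this start, although the RefSeq gene itself begins at 19991393, near the annotated start. The start at 20008023 is also that of the coding (CCDS) transcript. The 3 windows just before it were called for both H3K36me3 and H3K4me3. In Nlrp9c (chr7:26322473-26403700, minus strand) all 17 enriched windows lay in the first 42 kb. Past that point 6 windows were valid, of which 5 held no read and the other was at 0.226. RefSeq and CCDS transcripts end at 26364691, near that border, and the level was 1.87 over the RefSeq span and 1.72 over the CCDS span.

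Nlrp4e (chr7:23301192-23362277, plus strand) was the reverse of Nlrp9c. Its first part, up to the midpoint, was at 0.0864, 0.0721 and 0.185 in replicates 1 to 3, its second part at 1.13, 1.36 and 1.52. A domain of 12 kb at the end of the gene reached 2.18 ± 0.36 (SD, n = 3), with a window as high as 4.07. The start window was at 0.132 and carried no mark. The 8 enriched windows were centred between 39.8 and 59.8 kb past the start.

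To test such gradients, the second part of each gene (past the midpoint) was compared with the first by limma on log2(value + 0.1) over 16858 genes. Of these, 1268 (7.52%) were higher in the second part and 171 (1.01%) lower at an adjusted p under 0.05. Nlrp4e was higher in its second part, by 2.77 on the log2 scale (SE 0.28, limma adjusted p = 0.0374), and Nlrp9c was lower, by -2.0 (SE 0.31, limma adjusted p = 0.0403). For Nlrp9c the 19 windows of the first part were those of its RefSeq span, and all 7 of the second part lay past the RefSeq end. By RefSeq, its call therefore set the gene against the sequence after it, not 2 parts of the gene. Nlrp3 had -0.86 (SE 0.18, limma adjusted p = 0.0538) and Nlrp14 -0.46 (SE 0.11, limma adjusted p = 0.0703). Nlrp9a, Nlrp9b, Nlrp4a and Nlrp4b had log2 differences between -0.24 and 0.43, with limma adjusted p of 0.104 or more. Both calls were lost when any replicate was left out and with a pseudocount of 0.01, whereas edgeR on the recovered reads kept both (adjusted p = 4.48e-08 for Nlrp4e and 8.84e-07 for Nlrp9c) and also called Nlrp3 and Nlrp14 lower (0.0157 and 0.0463). By edgeR, 21.0% of all genes were higher in the second part and 3.24% lower.

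In these patterns, removed windows and low values coincided with less unique sequence. The authors removed windows with extreme input signal, and 35 of the 198 windows along the germline genes were gone, with 15 in Nlrp9c, 10 in Nlrp9b, 7 in Nlrp4e, 2 in Nlrp4b, 1 in Nlrp9a and 0 in Nlrp14 and Nlrp4a. For every window the share of 75-base stretches that occur once in the reference genome was counted, 75 bases being the read length. Removed windows had a median of 64% unique stretches and valid ones 99.2%, and 34 of the 35 removed windows were under 90%. Of the valid windows with at least 90%, 106 of 128 (82.8%) were enriched, and of the others 9 of 35 (25.7%).

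**Figure D3:**
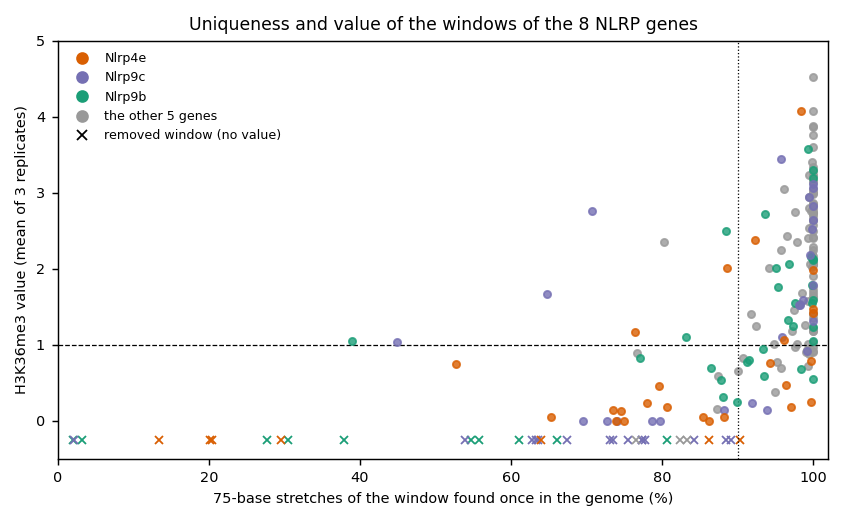
Each point is a valid window of the 8 genes, with the share of its 75-base stretches found once in the genome on the x axis and its H3K36me3 value (mean of 3 replicates) on the y axis; crosses are removed windows. Values above 1 (dashed line) lie mostly right of the dotted line at 90%, and 34 of the 35 removed windows lie left of it.

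The near-empty stretches of Nlrp4e and Nlrp9c coincided with low uniqueness. Together they held 20 of the 22 germline windows below 0.25, with a median of 79.3% unique stretches in Nlrp4e and 79.2% in Nlrp9c. In 5 windows of Nlrp9c and 3 of Nlrp4e no read fell in any library, which allows up to 3 reads, or a value of 0.234. On windows with at least 90% unique stretches the level of Nlrp4e was 1.34, above 1, from 11 of its 25 windows, and that of Nlrp9c was 1.93. The other members moved less, to between 1.55 and 2.57. The share of the low values that comes from reads that could not be placed was not tested.

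Windows that overlapped an exon carried the mark more often than windows within introns. In the germline genes 68 of 75 exon windows (90.7%) and 47 of 88 intron windows (53.4%) were enriched, where the shares over all protein-coding genes were 58.6% and 47.1%. In Nlrp9b exon windows had a mean of 2.00 ± 0.36 and intron windows 1.19 ± 0.27, and in Nlrp4e 1.41 ± 0.13 and 0.510 ± 0.138 (SD, n = 3). In Nlrp14 the means were 2.46 ± 0.41 and 2.69 ± 0.34, which differ by less than the spread. The exon windows were also the more unique ones in Nlrp9c (median 99.4% against 84.0%) and Nlrp4e (97.3% against 85.4%), and the part of uniqueness in this contrast was not tested.

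Gene bodies were then set against their surroundings, the gene-free valid windows within 20 kb of either end. Over 17001 genes tested with limma, 7504 (44.1%) were higher in the body and 770 (4.53%) lower, with a median log2 difference of 0.61. Of the 7 members that could be tested, 6 were higher than their flanks, and in each of them the body was higher in 3 of 3 replicates. For Nlrp14 the body was at 2.40, 2.31 and 2.99 and the flanks at 1.41, 1.16 and 1.51, a log2 difference of 0.87 (SE 0.15, limma adjusted p = 0.00216). Part of its upstream flank lay in the 46 kb domain described above and in the longer RefSeq span of the gene. All valid windows within 20 kb of Nlrp14 had a mean of 1.78 upstream and 0.880 downstream. Nlrp4a had 2.40 ± 0.19 against 1.03 ± 0.24, a difference of 1.16 on the log2 scale (SE 0.20, limma adjusted p = 0.00190). The others were Nlrp9c with 1.05 (limma adjusted p = 0.00649), Nlrp3 with 0.95 (0.0138), Nlrp4b with 0.94 (0.00320) and Nlrp9a with 0.74 (0.0191). The calls of Nlrp9a and Nlrp3 were lost without replicate 1 (limma adjusted p = 0.0914 and 0.0516), and that of Nlrp3 also without replicate 3 (0.0613). EdgeR called the same 6 members higher, with 45.0% of all genes higher and 4.25% lower. The 6 differences lay at percentiles 54.8 to 68.0 of those of all genes.

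**Figure D4:**
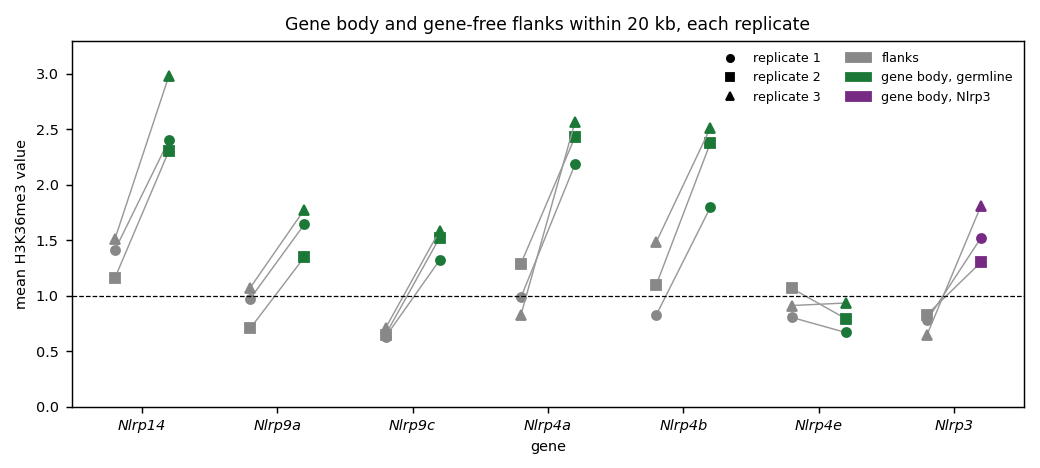
Mean H3K36me3 value of the gene body (coloured) and of gene-free windows within 20 kb (grey) for the 7 genes that could be tested, joined within each replicate. The body is above the flanks in every replicate of 6 genes, and in Nlrp4e it is below them in replicates 1 and 2.

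Nlrp4e did not differ detectably from its flanks, with 0.798 ± 0.133 in the body and 0.928 ± 0.132 around it (log2 -0.20, SE 0.26, limma adjusted p = 0.578). Nlrp9b had no gene-free window within 20 kb and was not tested there. Its left neighbour Ceacam20, a carcinoembryonic antigen-like adhesion gene, ends 0.361 kb before it and was itself at 1.68 ± 0.32. The flanks of the germline genes were mixed. Those of Nlrp4b fell from a mean of 1.81 upstream to 0.251 downstream, and those of Nlrp9c from 0.894 upstream to 0.0479 downstream.

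The other marks, called in the same windows from earlier libraries of the laboratory, separated the germline genes from Nlrp3. None of the 163 germline windows was called for H3K27me3, where 30.0% of all valid windows, 25.9% of those in protein-coding genes and 34.5% of those on chromosome 7 were. There was none either in the 110 valid flank windows within 20 kb, counted for each gene. A lack of H3K27me3 calls was common in genes with a level above 1. It held for 77.5% of the 6864 such protein-coding genes with at least 10 valid windows. Windows called for both H3K36me3 and H3K27me3 were 3.17% of those in protein-coding genes, where 51.2% were called for H3K36me3. In Nlrp3 (chr11:59541568-59566956, plus strand) all 14 windows were called for H3K27me3. Of these, 8 were called for H3K36me3 and H3K27me3, 1 for all of the marks and 5 for H3K27me3 alone. The deposited calls give 1 category per window and no values per replicate of H3K4me3 or H3K27me3, and all marks were measured in pools of oocytes, so that windows with both calls cannot show whether both marks sat on the same chromosome.

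**Figure D5:**
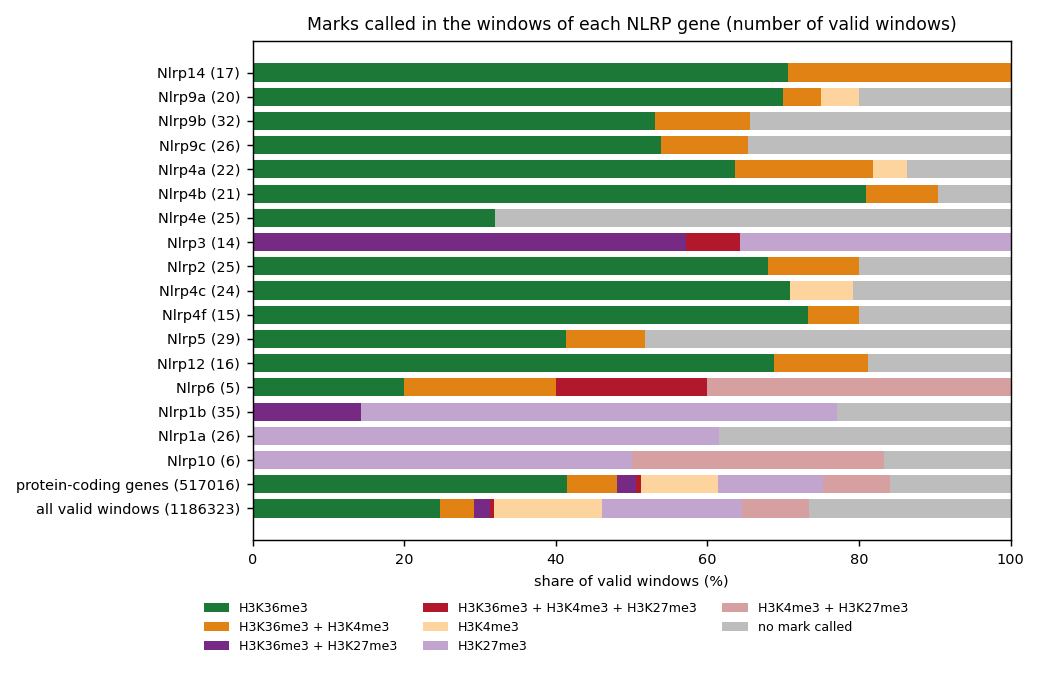
Share of valid windows (x axis, percent) in each combination of called marks for the 17 protein-coding NLRP genes, all protein-coding genes and all valid windows, with the number of windows in parentheses. The 7 germline members show no H3K27me3 colour, whereas all 14 windows of Nlrp3 do.

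In Nlrp3, 7 of the 9 enriched windows lay together near the start. This domain of 14 kb, which opened with the second window of the gene, had a mean of 2.10 ± 0.47, and stood at 1.98, 1.70 and 2.61 in replicates 1 to 3. The window of the first start was at 0.897 and called for H3K27me3 alone. The 9 enriched windows had a mean of 1.92 ± 0.50 and the other 5 of 0.864 ± 0.225 (SD, n = 3), a split that the threshold itself makes. Among 6864 protein-coding genes with at least 10 valid windows and a level above 1, 5321 (77.5%) had no H3K27me3 window and 13 (0.189%) had H3K27me3 called in every window. Nlrp3 is one of the 13, a count made after its windows had been seen. Its left neighbour Zkscan17, a zinc finger gene, was at 1.56 ± 0.13 with 0 of 22 windows called for H3K27me3. The olfactory receptor gene Olfr222 on the right was at 0.410 ± 0.234 with 4 of 4.

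H3K4me3 was called in 21 of the 163 germline windows (12.9%), fewer than the 28.3% of all valid windows and the 26.2% of windows in protein-coding genes. Of these, 19 were also called for H3K36me3. Windows with both of these calls were 11.7% of the germline windows, against 5.08% of all valid windows and 7.21% of those in protein-coding genes. H3K36me3 calls as such were 70.6%, 31.8% and 51.2% of these windows. Among windows enriched for H3K36me3, H3K4me3 was therefore called about as often in the germline genes as elsewhere. All 21 H3K4me3 windows had at least 90% unique stretches, and they were 16.4% of the germline windows of that kind. The part of uniqueness in the lower share was not tested. The window at the annotated start was called for H3K4me3 in Nlrp14, Nlrp9a, Nlrp9b, Nlrp9c, Nlrp4a and Nlrp4b, and not in Nlrp4e or Nlrp3. The share of start windows with this call over all protein-coding genes was not counted. The start window of Nlrp9b also holds the end of Ceacam20, which had 7 of 13 windows called for H3K4me3. Nlrp14 had 5 H3K4me3 windows in its first 10 kb, each of them enriched for H3K36me3 as well, and 8 over the whole of its 46 kb domain. Nlrp4a had 5 between the start and 13.9 kb into the gene. For Nlrp4a and Nlrp9a the start window itself was below the H3K36me3 threshold, at 0.871 and 0.964. Nlrp4e had no H3K4me3 window at all, but only 11 of its 25 valid windows had at least 90% unique stretches. The single H3K4me3 window of Nlrp3 was centred 13.4 kb past its start.

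The wider NLRP family gave a frame for these genes. Of the other 9 protein-coding NLRP genes, 6 had a level above 1, with a median of 1.29. Nlrp2 (1.92 ± 0.30), Nlrp4f (1.81 ± 0.60) and Nlrp5 (1.53 ± 0.34), which belong to the maternal complex beneath the oocyte membrane, had no H3K27me3 window. The same held for Nlrp4c (1.29 ± 0.16) and for Nlrp12 (1.57 ± 0.10), a gene best known from myeloid cells. Nlrp6, a gene of the intestinal epithelium, was at 1.27 ± 0.29 with 3 of 5 windows called for H3K27me3. The 3 low genes were Nlrp1b (0.449 ± 0.075, 27 of 35 windows with H3K27me3), the target of anthrax lethal toxin, Nlrp10 (0.339 ± 0.15, 5 of 6) and Nlrp1a (0.242 ± 0.068, 16 of 26). Against their flanks, Nlrp4c and Nlrp4f were higher by 1.39 and 1.62 on the log2 scale (limma adjusted p = 0.00440 and 0.00149), and the other 7 did not pass this test. Of these, edgeR called Nlrp2 and Nlrp12 higher (adjusted p = 0.0329 and 0.0249), and limma with flanks of 50 kb called Nlrp2, Nlrp12 and Nlrp6 (adjusted p = 0.00143, 0.00208 and 0.0117).

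Partner genes were read from lists. All 8 genes of the subcortical maternal complex, which include Nlrp2, Nlrp4f and Nlrp5, were above 1 (median 1.97), from Nlrp5 at 1.53 to Zbed3 at 2.99, and none had an H3K27me3 window. Of 13 inflammasome partners, 5 were above 1 (median 0.701), from the cytosolic DNA sensor Aim2 at 0.236 to Pycard, the ASC adaptor that links NLRP3 to caspase-1, at 2.37. H3K27me3 was called in at least 1 window of 9 of them. Of 11 other genes of the NLR family, 3 were above 1 (median 0.427), from Naip6, a flagellin receptor, at 0.0272 to Nod2, a receptor for bacterial peptidoglycan, at 2.75, and 6 had an H3K27me3 window. The whole set of protein-coding genes had 52.5% above 1, and 9246 of the 21063 had such a window. The lists are short, share genes with the family above and were not tested as sets. Naip6 held 6 reads in 10 valid windows, and the uniqueness of its windows was not counted.

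Of the 8 neighbours of the germline genes with valid windows, 3 had a level above 1, Ceacam20 among them, against 52.5% of all protein-coding genes. Next to Nlrp14 lay Olfr716 at 1.09 ± 0.04 and Rbmxl2, a testis RNA-binding gene, at 0.658 ± 0.289. Next to Nlrp4b, the vomeronasal receptor genes Vmn1r70 and Vmn1r71 were at 0.579 ± 0.276 and 0.20 ± 0.17. The cluster of Nlrp9c, Nlrp4a and Nlrp9a was bordered by Cyp2a4, a steroid hydroxylase, at 0.0678 ± 0.0597 and by Vmn1r185 at 0.963 ± 0.516 (SD, n = 3). Cyp2a4 held 3 reads in the 3 of its 5 windows that were valid. Nlrp4e was followed 23.6 kb downstream by Nlrp5 at 1.53 ± 0.34, and its left neighbour Gm6902, like Vmn1r91 beside Nlrp9b, had 0 valid windows.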

How the data were processed

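H3K36me3 ChIP-seq of 3 replicate GV oocyte pools was used. Per the methods, the authors trimmed reads, mapped them to GRCm38 (Bowtie2 2.2.9 per the submitters' processing notes), counted them over 2 kb windows in SeqMonk and removed windows of extreme input signal. The deposited signal, named RPKM by the authors, is a multiple of a fixed step in 100% of values (tolerance 0.01), and reads were recovered from it. The value of 1 read is near that of RPM (reads scaled to depth alone), with 1.07 times as many reads in the windows as that scale implies. The authors' H3K4me3, H3K27me3 and H3K36me3 calls came as a second deposited table of category names. The H3K36me3 call equalled a mean above 1 in every window. Duplicate removal is not given in the sources used here.

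Genes came from GENCODE M21. Body against gene-free flanks (within 20 kb, at least 3 windows) and second against first part, split at the midpoint (at least 4 windows) were fitted with limma 3.58.1 (R 4.3.3, trended eBayes) on log2(value + 0.1), without genes whose mean was below 0.1 and with the replicate as a block, since both sides are read from the same library. P-values were adjusted by Benjamini-Hochberg over all genes, threshold 0.05. EdgeR 4.0.16 (quasi-likelihood) on the recovered reads was the alternative. Both were also run on counts simulated with known changes and without a replicate effect, a setting simpler than the real libraries. Fold changes on this scale understate the change of low genes. The 75-base stretches were counted on both strands of GRCm38.p6. Promoters were aligned with Biopython 1.88. Named were all members, the other NLRP genes, the nearest protein-coding neighbours, and the highest and lowest gene of each list; Txnip, Nek7, Casp1 and Il1b were added after their values were seen. The members and lists were chosen with earlier results of these data known. The recovered reads of any pair of replicates differed by more than counting noise (chi-square over its degrees of freedom, 1.33 to 1.59), and no library was counted as a repeat.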

Additional observations from a re-analysis of the deposited data

How the results depend on the processing

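The count of 6 germline genes above 1 was 6 under every alternative but 1, and 7 on windows with at least 90% unique stretches. The H3K27me3 counts, 0 and 14 windows, held over other gene spans and on unique windows, apart from 12 for Nlrp3 on windows with their midpoint in the gene. Of the 163 valid germline windows, 73 (44.8%) were above 2, against 15% of all valid windows. For Nlrp3, 3 of 14 were above 2 and 3 above 1 in each replicate. Body against flanks, 1335 genes were lower with flanks of 50 kb, and 461 to 720 with a replicate left out, against 770; on unique windows Nlrp4e turned to 0.039. The order of the members' differences from their flanks also changed. On unique windows that of Nlrp4b was 1.34, of Nlrp9c 1.01 and of Nlrp4a 0.98, and with flanks of 50 kb that of Nlrp9b was 2.03, of Nlrp4b 1.60 and of Nlrp4a 1.37. Without the replicate block 7501 genes were higher and 720 lower, and no member call changed.

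The test of second against first part was unstable, and the cause was not tested. Genes higher and lower numbered 0 and 0 with a pseudocount of 0.01 (limma, 5098 genes at an unadjusted p under 0.05; edgeR called 3539 and 547), 0 and 0 with any replicate left out (3495 to 4579 unadjusted), 533 and 63 with no filter on low values, and 2281 and 278 without the replicate block. The members called were 0 higher and 0 lower with a pseudocount of 0.01 and with any replicate left out. Members called lower were 2 with a pseudocount of 0.5, 0 with no filter, 2 without the replicate block and 3 by edgeR. The second part of Nlrp9b ranged from -0.070 to 0.11 (log2) with a replicate left out.

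The log2 ratio of Nlrp14 to Nlrp3 fell to 0.063 over RefSeq spans. The ratio turned in sign for Nlrp9a on midpoint windows (-0.029). It turned for Nlrp9b on unique windows (0.13), by the median over windows (0.087) and over CCDS spans (0.086), and ranged from -0.24 to 0.11 with a replicate left out. It turned for Nlrp9c on unique windows (0.33), by the median (0.24), over RefSeq spans (0.28) and CCDS spans (0.17), and ranged from -0.20 to 0.018. RefSeq and CCDS spans, and a level from summed reads, were chosen after seeing the data. Depth limits single windows, since 1 read in replicate 2 is worth 0.396. Groups of 3 samples were too small for a test of outlying samples.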

Other observations

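Among the 4 NLRP pseudogenes of the annotation, Nlrp4g on chromosome 9 had the highest level. It was at 0.923, 1.98 and 1.9 in replicates 1 to 3, a mean of 1.60 ± 0.59 (SD, n = 3), with 4 of 5 windows enriched and 0 called for H3K27me3. Nlrp5-ps, which spans 46 valid windows on chromosome 7, was at 0.654 ± 0.217 with 10 enriched windows and 0 called for H3K27me3. Nlrp1c-ps, a relative of Nlrp1a and Nlrp1b, was at 0.928 ± 0.100 with 9 of 21 windows enriched and 10 called for H3K27me3. Nlrp4d was at 0.297 ± 0.114 with 0 of 16 windows enriched and 5 called for H3K27me3, and the annotated genes Nlrp4a, Nlrp4b, Nlrp4c, Nlrp4e, Nlrp4f and Nlrp4g had none.

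Inside the other NLRP genes, Nlrp1b had a first part (before the midpoint) at 0.797 ± 0.156 and a second part at 0.187 ± 0.031 (log2 -1.64, SE 0.28, limma adjusted p = 0.0428), and 5 of its 35 windows were called for both H3K36me3 and H3K27me3. Pycard, Txnip and Nek7 had levels of 2.37 ± 0.58, 2.17 ± 0.27 and 1.58 ± 0.09. These are the adaptor, a binding partner and a kinase of the NLRP3 inflammasome, and Casp1 and Il1b were at 1.15 ± 0.16 and 0.274 ± 0.022. Of these, Txnip, Nek7, Casp1 and Il1b were picked for naming after their values were seen. Pycard, Txnip and Nek7 had the highest levels of the 13 inflammasome partners, of which 8 were not above 1. Among all protein-coding genes 52.5% were above 1.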
